A study of Mus musculus with 15 samples.

Results

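The cells described here are low-UMI spermatids, cells of the mouse testis that carried transcripts of round spermatids but only a small number of unique molecular identifiers (UMIs, each the count of 1 captured RNA molecule). A cell was included when it had at least 500 detected genes, at least 1000 and under 2000 UMIs, under 30% mitochondrial UMIs and a UMI on at least 2 of the 6 spermatid markers Acrv1, Spaca1, Spaca7, Tex36, Lyzl6 and Izumo1. It had no UMI on the spermatocyte genes Sycp1 and Pou5f2, at most 1 UMI on the Sertoli genes Aard, Rhox8 and Defb19 together, and under 10% of its UMIs on the protamine and transition protein genes Prm1, Prm2, Tnp1 and Tnp2. These conditions held for 5526 of the 76494 cells that met the limits on genes, UMIs and mitochondrial UMIs (7.22%). The UMI total, these genes and the share of the cells in recovery chose the cells, so their values are given as a description with no test.

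The libraries came from dissociated testes of male DBA/2J mice, 1 testis and 1 mouse per library, and 3 libraries made up each of 5 groups. In T, 10 wk of age, JQ1 was injected intraperitoneally at 50 mg/kg daily for 3 wk and the testis was taken at the end. In R, 16 wk of age, the same 3 wk course was followed by 6 wk without drug. VC-T (10 wk) and VC-R (16 wk) received only the vehicle, DMSO diluted in (2-Hydroxypropyl)-β-cyclodextrin, with testes taken at the times of T and R, and UC (15 wk) was untreated. Age and treatment cannot be told apart where UC is the control. The comparisons R against UC and T against UC share the 3 UC libraries.

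Round spermatids are the haploid cells that follow meiosis. They transcribe actively, build the acrosome, the vesicle of enzymes over the nucleus that serves fertilization, and store messages for proteins made later. As they elongate, transition proteins and then protamines replace histones, transcription stops, and most cytoplasm is shed. JQ1 binds the bromodomains of the BET proteins, which include BRDT, the testis-specific member that reads acetylated histones in spermatocytes and spermatids. The transcripts followed below are those of the acrosome, of the sperm tail, of late spermatids, and of very long genes, whose unspliced RNA lies in the nucleus.

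The libraries held 9673587 to 98724982 UMIs. R 3 was the deepest, with 6942 UMIs per barcode where the others had 2643 to 4470. VC-T 1 stood apart from VC-T 2 and VC-T 3: the protamine and transition protein genes took 0.176% of the UMIs of its low-UMI spermatids, against 3.77% and 2.81% in those 2 libraries and 0.115 to 0.384% in T. Only 1 cell of VC-T 1 had at least 10% of its UMIs on these genes without Sycp1 or Pou5f2, against 992 in VC-T 2 and 1741 in VC-T 3. The study leaves VC-T 1 out of its differential tests, and results of VC-T are given with and without it. Across all cells within the limits, 745 of 75747 barcodes occurred in more than 1 library, and 3 of the 5523 member barcodes did.

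Low-UMI spermatids were found in every library, and the label given to them, abundant in recovery, held only in part. R 1, R 2 and R 3 had 740, 669 and 1489 such cells, which were 10.5%, 8.66% and 11.1% of their cells. UC had 76, 59 and 135, which were 2.32%, 1.91% and 3.04%, and VC-R had 136, 66 and 38, which were 2.69%, 1.74% and 1.30%. The share in each R library was therefore above that in each UC and VC-R library. In T the shares were 5.67%, 2.35% and 6.97%, from 331, 94 and 179 cells. VC-T 1 had the highest share of all libraries, 17.6% from 1026 cells, while VC-T 2 had 10.4% from 395 and VC-T 3 had 2.52% from 93. The group means were 10.1% ± 1.26 in R, 1.91% ± 0.711 in VC-R, 2.42% ± 0.572 in UC, 5.00% ± 2.38 in T and 10.2% ± 7.56 in VC-T (SD, n = 3 each), so the mean of VC-T lay beside that of R and its range covered that of R. Both depend on VC-T 1. Without it, VC-T 2 at 10.4% lay within the range of R and VC-T 3 at 2.52% lay below it. The 95% exact Clopper-Pearson intervals, which cover counting error only, ran from 10.5 to 11.6% in R 3 and from 0.923 to 1.78% in VC-R 3.

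**Figure D1:**
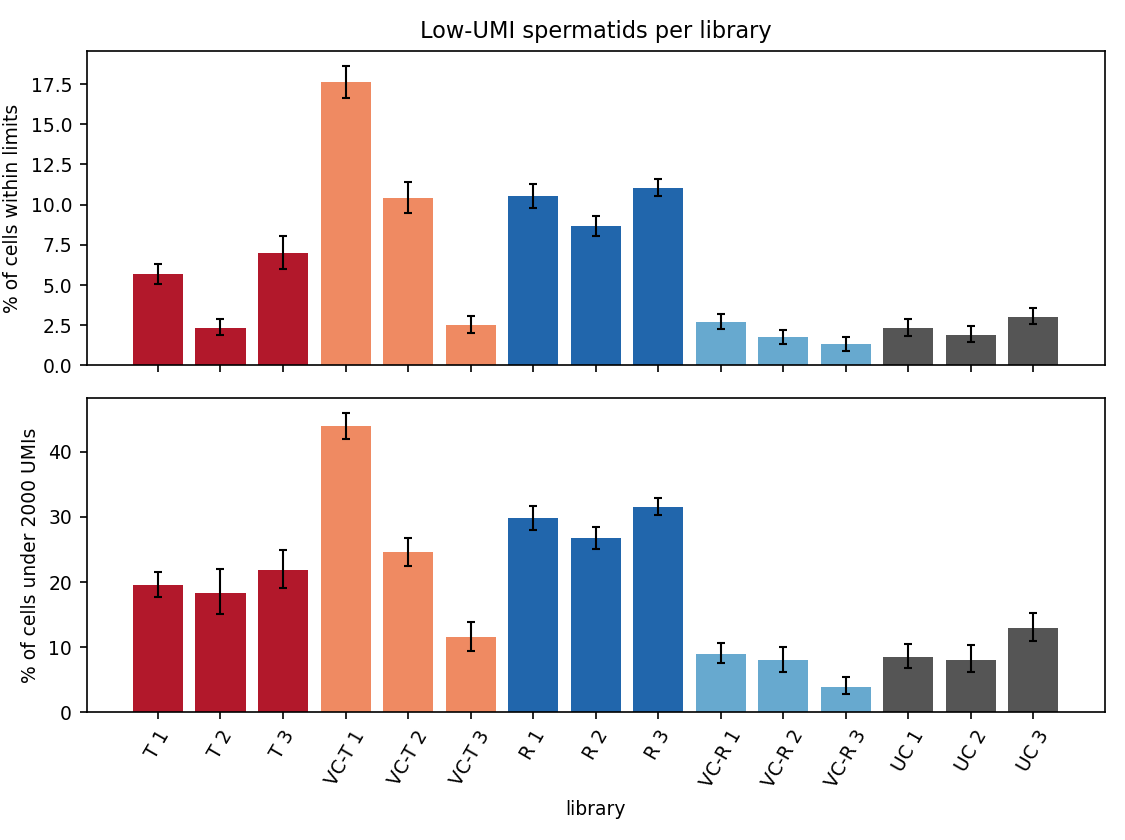
Low-UMI spermatids in each of the 15 libraries, as a percentage of the cells within the limits (upper panel) and of those under 2000 UMIs (lower panel), with exact Clopper-Pearson 95% intervals as bars. The 3 R libraries, at 8.66 to 11.1% of cells, lie above all 6 UC and VC-R libraries, and VC-T 1, at 17.6%, lies above R.

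Cells that met the same conditions on genes but had at least 2000 UMIs, called deeper spermatids below, numbered 4594. They made up 3.03%, 3.17% and 7.82% of the cells of R and 4.17 to 7.01% in UC, so R did not stand above UC in deeper spermatids. Of all cells in both bands, the low-UMI cells were 77.6%, 73.2% and 58.6% in R, 24.8 to 34.1% in UC, 13.0 to 36.3% in VC-R, 23.8 to 54.1% in T and 31.6 to 74.0% in VC-T. Among cells under 2000 UMIs of any kind, the share of low-UMI spermatids was 29.4% ± 2.45 in R, 9.85% ± 2.73 in UC, 6.99% ± 2.69 in VC-R, 19.9% ± 1.82 in T and 26.7% ± 16.3 in VC-T, where it ran from 11.5 to 43.9% (SD, n = 3 each). Without VC-T 1, VC-T 2 had 24.6% and VC-T 3 had 11.5%, both below the R libraries, which ran from 26.7 to 31.6%. When R 3 was thinned to the UMIs per barcode of R 1, which kept 58.8% of its UMIs, its share was 11.9%.

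The limits cut through gradual distributions. From 1900 to under 2000 UMIs lay 352 cells that met every other condition and from 2000 to under 2100 lay 311, and at the lower end there were 739 cells from 1000 to under 1100 UMIs and 779 from 900 to under 1000. Cells with 2 of the 6 markers numbered 2329, and 2595 cells with only 1 were left out. Just under the protamine and transition limit, 58 cells had 9 to 10% of their UMIs on these genes, and 33 cells had 10 to 11%.

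The median low-UMI spermatid of a library had 1220 to 1591 UMIs and 934 to 1150 genes. At an equal 1000 UMIs, it had 747.7 to 799.7 genes, where the deeper spermatids of the same libraries had 740.7 to 781.8, and the value was higher in low-UMI cells of each library but VC-T 2. Mitochondrial UMIs had a median share of 0.0340 to 0.530% per cell. A doublet score was computed for every cell, and the 5.4% highest of each library held 2.21 to 8.46% of the low-UMI spermatids.

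Transcripts of the acrosome outside the rule were present in every library. Acr, the gene of the protease acrosin, stood at 239, 237 and 231 CPM (the UMIs of a gene scaled to the same total UMI count in every library) in R, 237, 222 and 201 in UC, 311, 436 and 389 in VC-R, 256, 291 and 282 in T and 331, 213 and 222 in VC-T. In all 15 libraries this was above the level in spermatocytes under 2000 UMIs (cells with at least 3 UMIs on Sycp1 and Pou5f2), where it was 0 to 191 CPM. A UMI on Acr was found in 24.3 to 47.4% of low-UMI spermatids and in 0 to 21.3% of those spermatocytes, whose median depth of 1398 to 1706 UMIs was similar. The 24 of 25 acrosome genes outside the rule that the files hold had 7463 to 10820 CPM, the 25 genes of the tail and its sheath 10026 to 13626 CPM, and 20 spermatocyte genes outside the rule 2384 to 4634 CPM. Outside the rule, the spermatid part of the label thus rests on Acr, which lay above spermatocytes of similar depth. The summed lists were not compared with other cells, and the part of free RNA was not tested. The round shape cannot be read from RNA.

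Markers of other testis cells were low but not absent. Over the 10 Sertoli genes the sum was 56.7 to 96.7 CPM in R, 23.4 to 52.7 in UC, 31.1 to 88.4 in VC-R and 0 to 47.5 in T and VC-T. The 5 Leydig genes reached 44.1 to 100.1 CPM in R and 8.79 to 20.6 in UC, the 4 myoid genes 8.91 to 23.4 and 0 to 26.4, and the 3 endothelial genes 2.22 to 6.08 in R and 0 in UC. The 5 macrophage genes held 27.2 to 234.7 CPM in R and 11.7 to 193.4 in UC, and were at 0 in T 2, T 3 and VC-R 3. In every list each gene had a UMI in at least 1 library, and the part of these cells in the results below was not tested.

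Of the 6 genes given as markers of these cells, Acrv1 and Spaca1 encode acrosomal proteins and belong to the rule. The other 4 are very long genes that the rule does not use: Agbl1 (chromosome 7, 76229887 to 77124698, GRCm38), a carboxypeptidase that trims glutamate from tubulin and other proteins, Zfp804b (chromosome 5, 6769010 to 7344756), a zinc finger gene, Pcdh9 (chromosome 14, 93013410 to 93890679), a protocadherin, and Ttn (chromosome 2, 76703980 to 76982547), which encodes the muscle protein titin. Their spans are 895, 576, 877 and 279 kb. Because the cells were proposed by these genes, their levels are a description.

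Pcdh9 stood at 489, 375 and 177 CPM in R, 272, 386 and 376 in UC, 348, 447 and 88.4 in VC-R, 218, 430 and 260 in T and 190, 264 and 199 in VC-T. In deeper spermatids it was at 205, 162 and 290 CPM in R and 70.5, 85.4 and 92.9 in UC. Low-UMI cells therefore carried more Pcdh9 than deeper cells in R 1, R 2 and all UC libraries, and less in R 3. Ttn was at 217, 220 and 140 CPM in R, 87.9, 129 and 165 in UC, 156, 115 and 53.1 in VC-R, 39.5, 97.0 and 80.5 in T and 42.1, 224 and 38.3 in VC-T. The groups overlapped, and T had the lowest mean. Agbl1 was at 217, 190 and 93.6 CPM in R and 132, 199 and 149 in UC, and Zfp804b at 248, 211 and 99.0 in R and 105, 245 and 366 in UC. Neither separated R from UC, and R 3 had the lowest level of each among the R libraries.

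The bands were then compared gene by gene across the genome. Of 4124 genes with at least 50 CPM in either band, 9 had a higher CPM in low-UMI than in deeper spermatids in all 15 libraries and 3 a lower one. The 9 were Ttn, Cpa6, Akap9, Cmss1, Atp10a, Gm42418, AY036118, Rfx4 and Manf, and the 3 were D8Ertd738e, Aqp11 and Tecr. Ttn had the highest median log2 ratio (with 5 CPM added), 1.54, followed by Cpa6, a carboxypeptidase, at 1.02 and by Akap9, an anchoring protein of the centrosome and Golgi, at 1.02. Rfx4, a transcription factor gene with a testis form, was at 0.53. Aqp11, a water channel of spermatid membranes, was at -0.35 and Tecr, an enzyme of very long chain fatty acid synthesis, at -0.30. Of the 9 genes, 6 span at least 100 kb, with a median of 153 kb, against 14.3 kb for the 3 and 22.0 kb for all genes compared. Gm42418 and AY036118 are short, overlap on chromosome 17 and share their position with ribosomal RNA sequence, so their UMIs cannot be told apart.

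Grouped by span, the median log2 ratio rose from -0.14 for 723 genes under 5 kb to 0.26 for 348 genes of 100 to 200 kb and 0.90 for 87 genes of at least 500 kb. In that longest class the ratio was 1.47, 1.51 and 1.46 in UC, 0.92 and 0.89 in R 1 and R 2, and -0.43 in R 3. VC-R 3 was also below 0, at -0.11, and VC-T 1 was near 0, at 0.21. For genes of at least 500 kb the ratio was thus above 0 in all libraries but R 3 and VC-R 3, and it was larger in each UC library than in each of R. The deeper cells of R 3 themselves carried 12.6% of their UMIs on genes of at least 100 kb, the highest share among the deeper spermatids of any library.

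**Figure D2:**
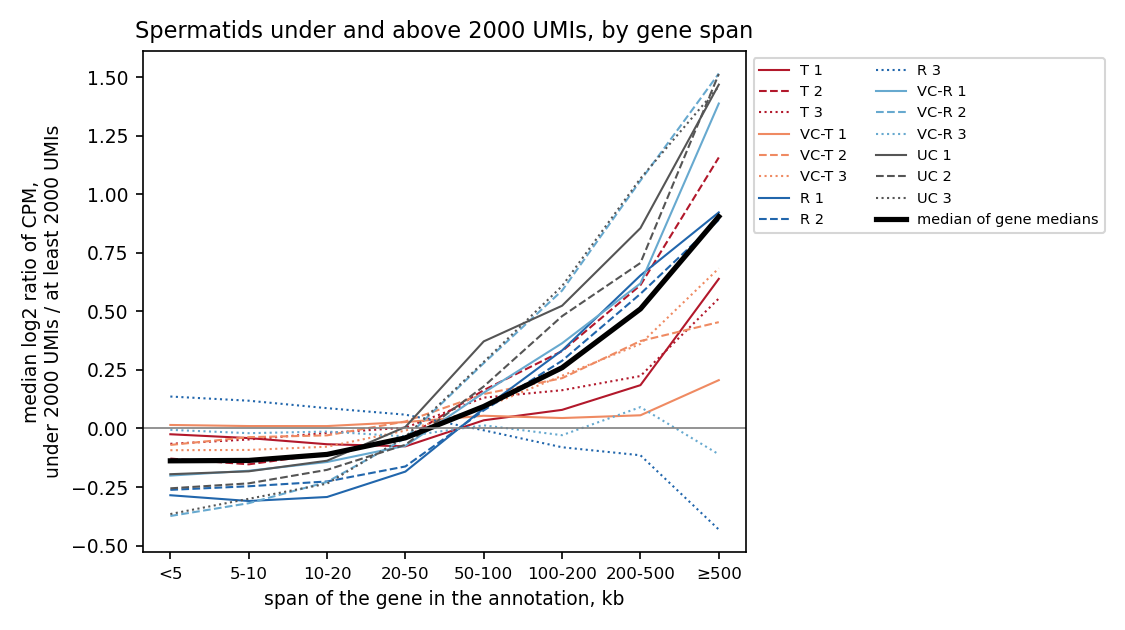
Median log2 ratio of CPM in low-UMI over deeper spermatids for genes in 8 classes of span (kb), 1 line per library and a black line for the median of the genes' medians over libraries. The black line rises from -0.14 to 0.90, while R 3 falls from 0.14 to -0.43.

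Divided by UMI band, the share of UMIs on genes of at least 100 kb fell with rising UMIs in most libraries. In UC it was 15.2%, 17.2% and 14.9% from 1000 to under 1500 UMIs and 6.84%, 7.99% and 7.58% at 5000 UMIs or more. In R 1 and R 2 it stayed between 14.1% and 17.6% up to 3000 UMIs and was 8.42% and 8.57% at 5000 UMIs or more. R 3 ran the other way at the low end, with 8.96% from 1000 to under 1500 UMIs and 13.9% from 3000 to under 5000. Thinned to the depth of R 1, the low-UMI cells of R 3 had 13.2% on these genes in place of 10.7%, and Pcdh9 at 341 CPM, Agbl1 at 190 and Ttn at 159. The nuclear RNA Malat1, which is not long, moved with the long genes: it was at 4171, 3631 and 1334 CPM in R, 3125 in R 3 when thinned, and 1819, 2886 and 2705 in UC. The part of sequencing depth in the values of R 3 beyond this thinning was not tested.

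**Figure D3:**
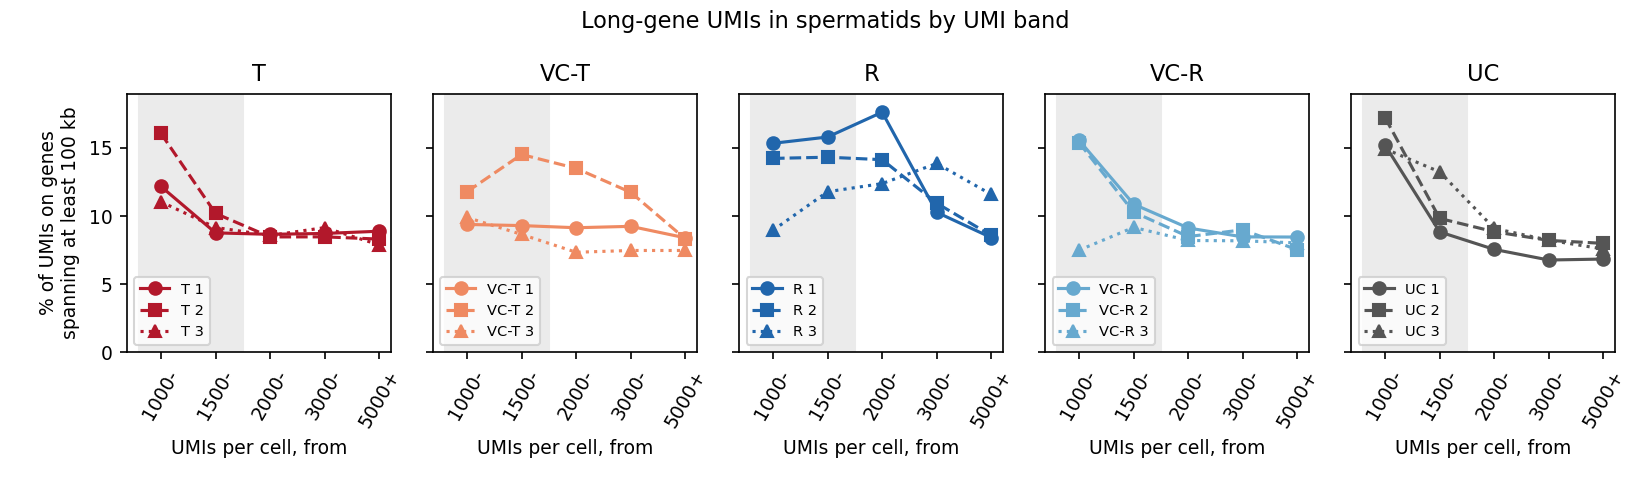
Percentage of UMIs on genes spanning at least 100 kb in spermatids of 5 UMI bands, 1 panel per group and 1 line per library, with the low-UMI window shaded. In UC the share falls from 14.9 to 17.2% in the lowest band to 6.84 to 7.99% in the highest, and in R 3 it is lowest, 8.96%, in the lowest band.

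The UMI shares of 4 gene sets were compared between R and the 6 UC and VC-R libraries by exact two-sided permutation tests, in which 3 against 6 libraries allow no p under 0.0238. Long genes held 15.5%, 14.3% and 10.7% of the UMIs in R, 11.5%, 13.3% and 14.1% in UC and 13.5%, 13.7% and 8.43% in VC-R, so the groups overlapped. The difference of 1.06 points did not exceed the spread of the libraries (exact permutation p = 0.595, adjusted over the 4 sets 0.595). The 80 cytoplasmic ribosomal protein genes held 3.30% ± 0.517 in R (SD, n = 3) and 3.50% ± 0.399 in the controls (SD, n = 6, exact permutation p = 0.571, adjusted 0.595). X-linked genes, which spermatids express at a low level after meiotic silencing, held 1.24% ± 0.0176 and 1.33% ± 0.0987 (SD, n = 3 and 6, exact permutation p = 0.190, adjusted 0.381). The 31 of 33 late spermatid genes found in the files held 2.71%, 2.85% and 3.17% in R, 2.24 to 2.58% in UC and 2.14 to 2.73% in VC-R. The late genes were 0.488 points higher in R, with an overlap of 1 library, VC-R 3 at 2.73%, and an exact permutation p of 0.0476 that did not pass the adjustment (0.190). The late list was chosen with earlier results of these data known, so its p is not independent of them. Smcp belongs to this set. Its mean was 7362 CPM in R and 2808 in UC, where the whole set had 29106 and 24154 CPM. The median log2 fold change over the set was -0.04 against UC and 0.24 against VC-R, so the difference is not read as a rise across the set. Within the same-numbered pairs of R and VC-R, the late genes were 0.568, 0.432 and 0.440 points higher in R and the long genes 1.99, 0.561 and 2.27 points, so each R library lay above its pair. Sign flips over 3 pairs allow no two-sided p under 0.25, which was the exact permutation p of all 4 sets. This pairing was chosen after the values were seen.

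Gene by gene, UMIs were summed per library over the low-UMI spermatids and entered in edgeR's quasi-likelihood model, with a gene called at an adjusted p under 0.05 and a change of more than 1 log2 unit. Between R and UC, 17 of 7552 genes were called (0.225%), all 17 higher in R. Among them were Smcp, a cysteine-rich protein of the sperm mitochondrial capsule, Dbil5, an acyl-CoA binding protein of spermatids, Tssk6, a testis-specific kinase, Tppp2, a tubulin-binding protein, and Oaz3, the antizyme that limits polyamine synthesis in haploid cells. Azin2, which counters antizymes, was called with them. The promoters of Smcp, Dbil5 and Tssk6 are shown because these genes moved together in R and have an entry in the RefSeq promoter table (GRCm38.p6, 250 bases before to 50 after the start). Capitals mark TGACG or its reverse complement CGTCA, a part of the cAMP response element that CREM, the regulator of many spermatid genes, binds.
Smcp (chr3:92589024-92589323, minus strand): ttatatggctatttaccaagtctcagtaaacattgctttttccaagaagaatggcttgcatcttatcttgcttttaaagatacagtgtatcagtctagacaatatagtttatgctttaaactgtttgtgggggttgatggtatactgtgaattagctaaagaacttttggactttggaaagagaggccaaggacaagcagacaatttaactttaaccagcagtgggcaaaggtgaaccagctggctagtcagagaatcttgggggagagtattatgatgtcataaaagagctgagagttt
Dbil5 (chr11:76217363-76217662, plus strand): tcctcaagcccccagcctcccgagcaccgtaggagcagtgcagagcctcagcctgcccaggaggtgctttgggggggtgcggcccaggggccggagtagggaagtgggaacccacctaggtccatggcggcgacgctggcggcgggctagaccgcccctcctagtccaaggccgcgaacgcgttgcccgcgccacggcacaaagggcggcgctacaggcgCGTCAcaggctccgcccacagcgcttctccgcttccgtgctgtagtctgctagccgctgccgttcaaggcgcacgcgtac
Tssk6 (chr8:69901934-69902233, plus strand): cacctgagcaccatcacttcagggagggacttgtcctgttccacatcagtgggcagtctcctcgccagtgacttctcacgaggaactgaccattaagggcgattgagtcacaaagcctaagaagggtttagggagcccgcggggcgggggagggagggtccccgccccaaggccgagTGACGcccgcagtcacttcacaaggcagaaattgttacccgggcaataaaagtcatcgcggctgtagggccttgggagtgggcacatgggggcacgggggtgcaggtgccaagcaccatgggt

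The match lies 73 bases before the start in Tssk6 and 30 bases before it in Dbil5, and Smcp has none. Of the 17 called genes, 7 were in the promoter table and 3 of these, Tssk6, Dbil5 and Cmss1, held the motif on either strand. It was found in 31.67% of the 5816 promoters of genes tested and in 21.02% of all 27025, so 3 of 7 is a description and nothing is read from it.

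Smcp stood at 6852, 7593 and 7641 CPM in R and 2681, 2945 and 2798 in UC, and at 2372, 5009 and 3449 in VC-R. Every R library was above every other library of the series. The log2 fold change against UC was 1.44 (SE 0.20, edgeR adjusted p = 0.000712). Dbil5 was at 4268, 4802 and 4804 CPM in R and 2039, 1765 and 2040 in UC (1.29, SE 0.20, edgeR adjusted p = 0.00269). Tssk6 was at 1031, 1177 and 1184 CPM in R and 589, 397 and 577 in UC (1.15, SE 0.21, edgeR adjusted p = 0.0143). Neither pair of groups overlapped, and VC-T 2 reached 3708 CPM for Smcp, 2633 for Dbil5 and 587 for Tssk6.

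Among the others, 1700012A03Rik was at 923, 914 and 905 CPM in R and 308, 351 and 289 in UC (1.60), Gm15517 at 1101, 1248 and 1248 and 255, 304 and 443 (1.86), and 4930570D08Rik at 303, 308 and 354 and 123, 152 and 82.4 (1.57). Oaz3 changed by 1.07, Tppp2 by 1.20 and Azin2 by 1.35. These genes lay higher in all 3 R libraries than in all 3 of UC, which their choice from the called genes makes likely. The mitochondrial genes mt-Co1 (1.17), mt-Atp6 (1.21), mt-Nd2 (1.23) and mt-Atp8 were called, as were Gm10076 (1.37), Gm42418 (1.37) and Cmss1 (1.14), a long gene of 305 kb that was also higher than in deeper cells in all 15 libraries. Mitochondrial transcripts together took 1.44%, 1.88% and 1.96% of the UMIs in R, 0.586%, 0.781% and 1.22% in UC and 0.870%, 1.35% and 0.709% in VC-R, and their part in the other calls was not tested. Gm42418 was at 5030, 5288 and 6922 CPM in R and 2021, 1788 and 3045 in UC. Dcn, decorin, a matrix protein of stromal cells, was at 58.8, 95.7 and 43.7 CPM in R and 8.79, 0 and 0 in UC, and no more than 1.64% of the R cells had a UMI on it. Dcn and mt-Atp8 rest on 1 UMI or none in the UC libraries, so no fold is given for them.

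Lists of spermatid genes were then counted. Of the 33 late spermatid genes, 31 passed the filter and 3 were called (Smcp, Tssk6 and Oaz3), or 9.68% against 0.225% of all genes tested. The median log2 fold change was -0.04 over the list against 0.01 over all genes tested. The late list was chosen with earlier results of these data known, so this share is a description. None of the 22 acrosome genes, 25 tail genes, 11 regulators and 3 BET genes tested was called, with medians of -0.24, -0.11, -0.19 and -0.19, nor was any of the 4 protamine and transition genes, which the rule limits. With 0.225% of all genes called, a count of 0 in lists this short is not read as a lack of change. Crem was at 394, 392 and 405 CPM in R and 501, 526 and 397 in UC (-0.19, SE 0.21), and Gapdhs, the glycolytic enzyme of the sperm tail, at 978, 1016 and 1074 and 1186, 1157 and 938 (-0.04, SE 0.20). Odf1, a protein of the outer dense fibres, was at 352, 344 and 409 CPM in R and 185, 152 and 237 in UC and missed the threshold (0.95, SE 0.23, edgeR adjusted p = 0.126). With only cells under 1500 UMIs, no gene was called by edgeR (345 of 6051 had an unadjusted p under 0.05), and without UC 2, 4 were.

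**Figure D4:**
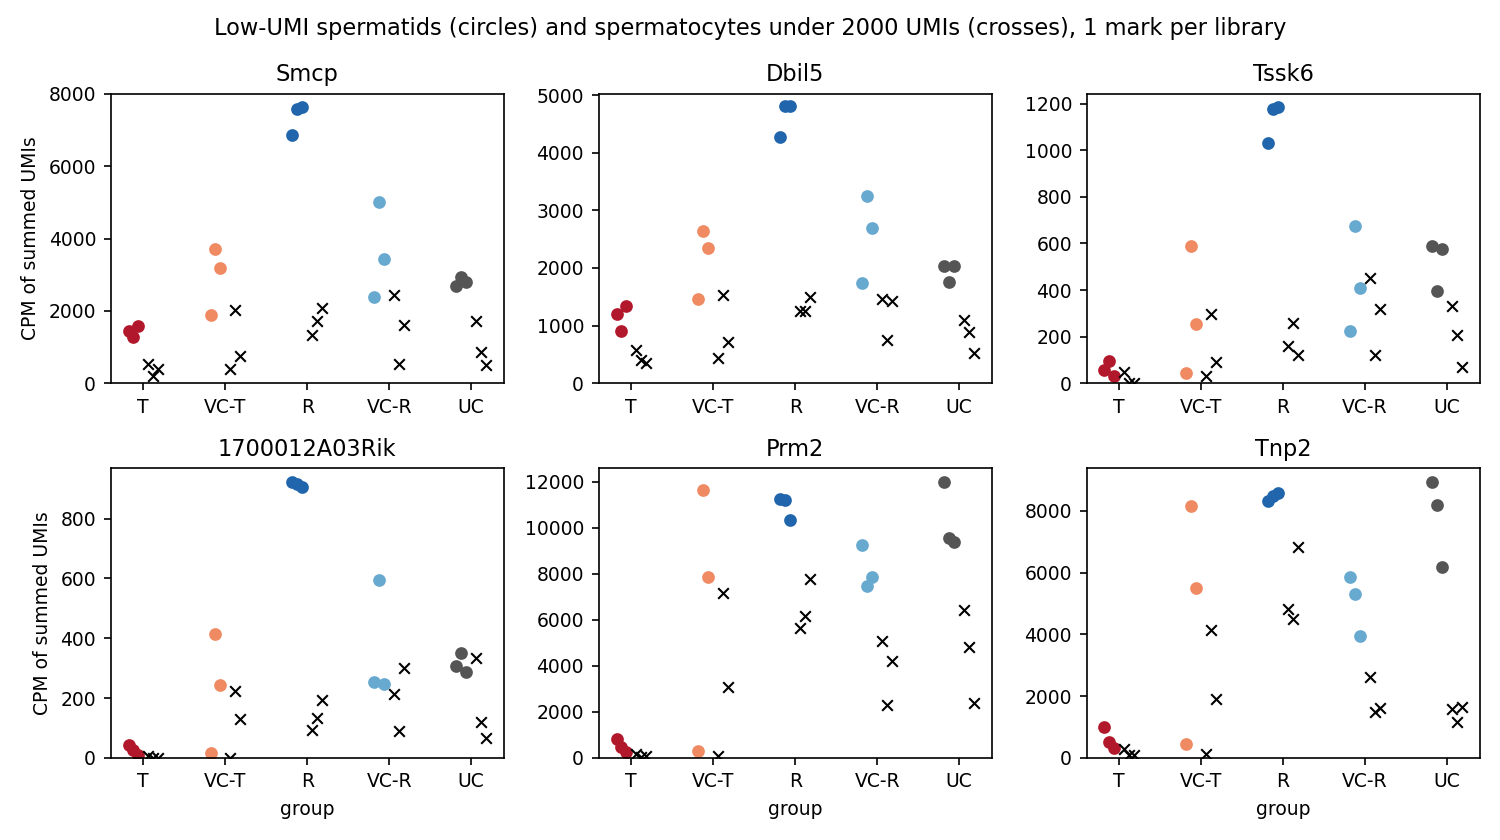
Level of 6 late spermatid transcripts, in CPM of summed UMIs, in low-UMI spermatids (circles) and in spermatocytes under 2000 UMIs (crosses), 1 mark per library. For Smcp and Dbil5 the 3 R circles lie above those of the other groups, and for Prm2 and Tnp2 the circles of T and of VC-T 1 lie lowest.

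The background of these transcripts in other cells was not small. In spermatocytes under 2000 UMIs, Smcp was at 1341, 1728 and 2081 CPM in R and 1733, 863 and 498 in UC, where the groups overlapped, and it was lower than in low-UMI spermatids of the same library in all libraries except VC-R 1, where it was 2442 against 2372. In Sertoli-gated cells (at least 5 UMIs on Aard, Rhox8 and Defb19 and none of the 6 spermatid markers), it was at 8229, 6492 and 5697 CPM in R and 5773, 6649 and 3760 in UC. Low-UMI spermatids thus lay below the Sertoli-gated cells of their own library in R 1 and all UC libraries and above them in R 2 and R 3. The Sertoli-gated set also takes in cells with late haploid transcripts, as its Prm2 in UC, given below, shows. That set has no limit on protamine and transition UMIs, and with the limit of 10% that the spermatids meet, a limit added after the values were seen, Smcp in it was at 6287, 3354 and 4228 CPM in R and 2044, 5738 and 2373 in UC, below the low-UMI spermatids in all libraries of both groups except UC 2. A UMI on Smcp was found in 91.9 to 97.4% of low-UMI spermatids of R, at a median of 1276 to 1531 UMIs, and in 91.7 to 96.9% of the Sertoli-gated cells without that limit, at 1590 to 1980. Tssk6 in Sertoli-gated cells without the limit was at 1430, 1243 and 924 CPM in R and 1068, 1369 and 895 in UC, and Dbil5 at 5083, 3954 and 3671 and 3270, 4569 and 2280. In R 1 and all UC libraries low-UMI spermatids lay below these levels for both genes. With the 10% limit they lay above the Sertoli-gated cells for both genes in all R libraries, UC 1 and UC 3, and below them in UC 2, where the level is not read as expression by the spermatids. The part of free RNA in the difference between R and UC was not tested.

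Within R, a small number of cells held most of the Smcp UMIs. Cells with at least 20 UMIs on Smcp, Oaz3, Tssk6, Dbil5 and Cabs1 together, a limit chosen after the values were seen, made up 10.0%, 10.8% and 11.3% of the low-UMI spermatids of R and held 72.3%, 72.2% and 70.8% of their Smcp UMIs. In UC they made up 10.5%, 1.69% and 5.19%, from 8, 1 and 7 cells, and held 29.8%, 17.1% and 42.2%. In VC-R they made up 6.62%, 6.06% and 7.89% and held 31.5%, 56.3% and 32.8%. T and VC-T 1 had none, and VC-T 2 and VC-T 3 had 3.04% and 7.53%. Near the limit, at 15 to 24 UMIs, lay 31, 20 and 88 cells of R and 13, 9 and 14 of UC. The median low-UMI spermatid had 3, 3 and 4 UMIs on Smcp in R and 3, 3 and 2 in UC, so the typical cell carried about the same number in both groups. In R, the cells over the limit had a median of 7.32%, 7.42% and 6.74% of their UMIs on long genes, where the remaining cells had 16.5%, 14.8% and 9.26%. They carried a mean of 2.39, 2.56 and 2.43 of the 6 spermatid markers, against 2.84 in the remaining cells of each R library, where the rule asks for at least 2. The limit counts Smcp itself, so its concentration in these cells is a description. The shares of the other genes of the limit were not computed, and the stage of these cells was not tested.

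**Figure D5:**
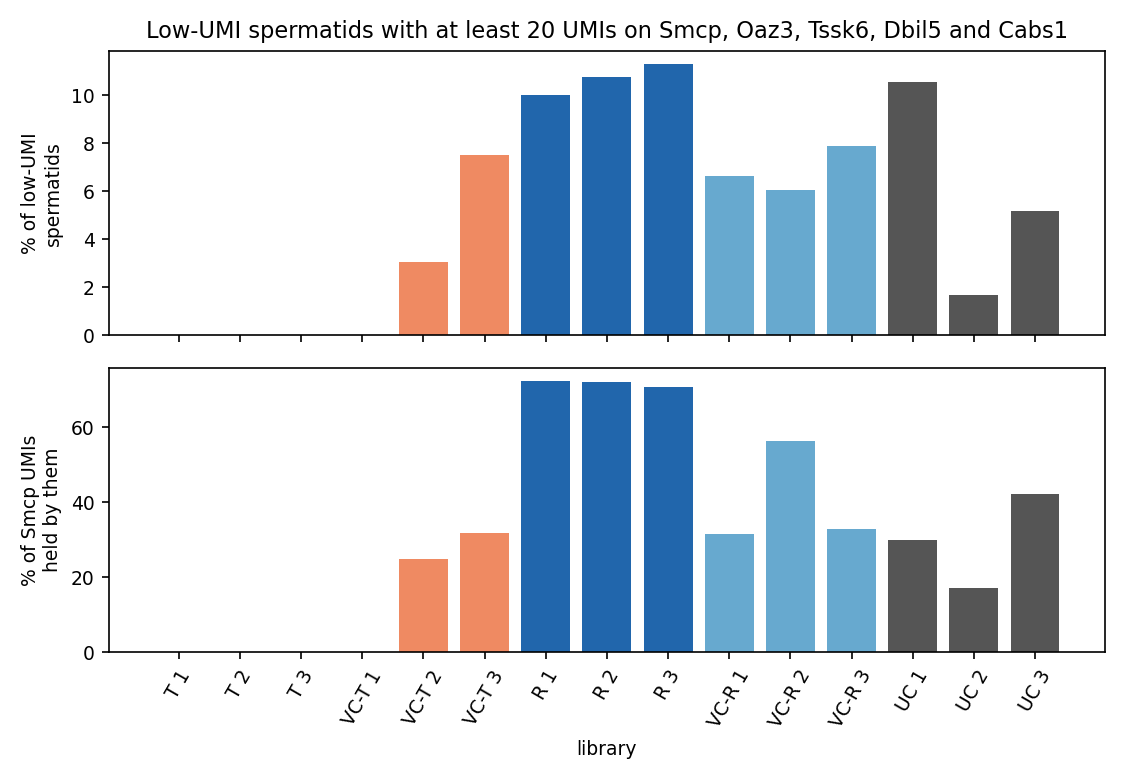
Low-UMI spermatids with at least 20 UMIs on Smcp, Oaz3, Tssk6, Dbil5 and Cabs1, as a percentage of low-UMI spermatids and as the percentage of all Smcp UMIs that they hold, in each library. In R, 10.0 to 11.3% of the cells hold 70.8 to 72.3% of the Smcp UMIs, and in no other library do such cells hold more than 56.3%.

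Against VC-R, the vehicle group of the same age, 7 of 7548 genes were called (0.0927%), all higher in R. They were the globin genes Hbb-bs, Hba-a1 and Hbb-bt, Lelp1, a gene of late spermatids, Cabs1, a calcium-binding protein of spermatids, Gm15517 and mt-Nd2. Lelp1 was at 645, 712 and 728 CPM in R and 234, 321 and 318 in VC-R (1.40, SE 0.22, edgeR adjusted p = 0.0140). Cabs1 was at 727, 780 and 913 CPM and 348, 367 and 354 (1.28, SE 0.21, edgeR adjusted p = 0.0215). Gm15517 was at 1101, 1248 and 1248 CPM in R and 519, 665 and 442 in VC-R (1.23). None of the groups overlapped for these 3 genes, which their choice from the called genes makes likely. Smcp (1.14, edgeR adjusted p = 0.106), Dbil5 (0.97, adjusted p = 0.141), Tssk6 (1.55, adjusted p = 0.0553) and Oaz3 (1.06, adjusted p = 0.0560) were higher in R in value but missed the threshold. The replicate number was also used as a block. The labels do not pair these mice, and the reason for the block lies in correlations within the same data. With this block, 80 genes were called, 72 higher and 8 lower. Smcp (1.19, edgeR adjusted p = 2.0e-07), Dbil5 (1.00, adjusted p = 2.2e-05), Tssk6 (1.59, adjusted p = 3.2e-12) and Oaz3 (1.05, adjusted p = 9.9e-06) were then among those called.

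The globin transcripts, which belong to red blood cells, came from few barcodes. In R, 22 of 2898 low-UMI spermatids had at least 3 globin UMIs, and they held 11505 of the 11539 globin UMIs of the group. Hbb-bs was at 2526, 2246 and 1034 CPM in R. VC-R had 0 globin UMIs among 336480, a floor of 8.92 CPM at 3 counts over the group, so the summed globin level of R, 2794 CPM, was at least 313-fold higher. UC 3 had 662 globin UMIs, all in 1 cell, and T 1 had 244. When cells with at least 3 globin UMIs were left out, no gene was called between R and VC-R by edgeR (506 of 7537 genes had an unadjusted p under 0.05), and Lelp1 and Cabs1 had an adjusted p of 0.0523 and Gm15517 and mt-Nd2 of 0.0564. Their log2 fold changes were 1.40, 1.28, 1.23 and 1.51, as with all cells. Against UC, 17 genes were called without these cells.

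At the end of JQ1 treatment the low-UMI spermatids carried fewer transcripts of late spermatids than in UC. Between T and UC, 385 of 3741 genes were called (10.3%), 83 higher (2.22%) and 302 lower (8.07%) in T. These counts include the 4 protamine and transition genes, whose share the rule limits from above, and 298 genes were lower without them. Their levels are a description: Prm2 was at 800, 457 and 234 CPM in T and 12005, 9559 and 9383 in UC, and Tnp2 at 985, 499 and 311 and 8947, 8192 and 6193. Tssk6 was at 58.2, 97.0 and 29.3 CPM in T and 589, 397 and 577 in UC (-3.28, SE 0.29, edgeR adjusted p = 2.6e-08). Cabs1 changed by -2.92, Tppp2 by -3.12, 1700012A03Rik by -3.40 and 1700027A15Rik by -2.56. Car2, carbonic anhydrase 2, was at 8.31, 0 and 7.32 CPM in T and 185, 152 and 216 in UC, with 0 to 1.21% of the T cells and 18.6 to 23.0% of the UC cells showing a UMI. In all of these the 3 T libraries lay below all UC libraries, which their choice from the called genes makes likely. VC-T 1, with 1.94 CPM of Car2, 42.8 of Tssk6 and 300.2 of Prm2, lay within the range of T.

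Of the late spermatid list, 30 genes passed the filter, 12 were lower and none was higher, with a median log2 fold change of -0.81 against 0.04 over all genes tested. This list was chosen with earlier results of these data known, so its counts are a description. The 12 were Tssk6, Cabs1, Car2, Spata3 (-1.81), Gapdhs (-1.41), Smcp (-1.03), Spata18 (-1.66), H1fnt (-1.49), a linker histone of elongating spermatids, Fam71b (-2.14), Spem1 (-2.21), Hspa1l (-1.51) and Spem2 (-1.56). In the acrosome list 2 of 21 genes were lower, Zp3r (-1.08), which encodes a protein of the acrosomal matrix, and Sppl2c (-1.78), an intramembrane protease of spermatids. In the tail list 2 of 24 were lower, Akap4 (-1.25), the main scaffold of the fibrous sheath, and Tekt5 (-1.34). These shares, 9.52% and 8.33%, lie near the 8.07% of all genes tested that were lower. Fhl5, the coactivator of CREM, was at 191, 222 and 161 CPM in T and 439, 526 and 345 in UC (-1.23), while Crem itself was at 422, 568 and 600 and 501, 526 and 397 and was not called (0.10, SE 0.19). Herpud1 (-2.87) and Jund (-1.76) were lower among 4 stress genes tested. Brdt, the target of JQ1 in germ cells, was at 141, 132 and 172 CPM in T and 43.9, 70.1 and 108 in UC (0.85, SE 0.33, edgeR adjusted p = 0.0758), so it did not pass.

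Among the called genes that were higher in T, Tomm22, a receptor of mitochondrial import, was at 295, 381 and 370 CPM in T and 132, 129 and 92.7 in UC (1.53, SE 0.26, edgeR adjusted p = 0.000231). Map4k1, a kinase, was at 154, 125 and 128 CPM and 35.2, 23.4 and 25.8 (2.22), Smarca5, a chromatin remodelling ATPase, at 137, 187 and 198 and 35.2, 58.4 and 51.5 (1.74), and Gk2, the glycerol kinase of the testis, at 366, 367 and 432 and 202, 152 and 165 (1.10). The ribosomal protein gene Rps29 (1.01), the splicing protein gene Snrpg (1.24), the proteasome subunit gene Sem1 (1.15), Fkbp1a (1.15), Ndufb1-ps (1.11) and 1700097N02Rik (1.84) completed the 10 with the smallest p. None of these 10 overlapped between T and UC, which their choice by smallest p makes likely. The share of all genes tested without overlap was not counted. Sycp3, a protein of the meiotic chromosome axis, was higher (1.64), the only one of 10 spermatocyte genes tested that was called, at 204, 83.2 and 69.5 CPM in T and 8.79, 35.1 and 61.8 in UC. The median log2 fold change over those 10 genes was 0.47, against 0.04 over all genes tested. The 20 spermatocyte genes together held 4634, 3930 and 3930 CPM in T, 2839, 2875 and 3133 in UC and 3924, 3127 and 2709 in VC-T, so T and UC did not overlap and VC-T 1 lay just below T. Against VC-T 2 and VC-T 3 none of the 13 tested was called, where 0.0544% of all genes tested were higher. The median of the 13 was 0.44 against -0.0034.

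Spermatocytes under 2000 UMIs gave the background for T too. In them Prm2 was at 153, 14.7 and 88.1 CPM in T and 6434, 4817 and 2390 in UC, so a large difference stood in cells that precede its main expression. Sertoli-gated cells of UC had Prm2 at 44085, 36771 and 23488 CPM, above the low-UMI spermatids, and at 7543, 7056 and 6432 with the 10% limit, below them. Of the 302 genes lower in low-UMI spermatids of T, 221 had the same sign in those spermatocytes and 102 were lower there by over 1 log2 unit, with a median of -0.61 against -1.40 in low-UMI spermatids. Of the 83 higher genes, 57 had the same sign and 19 exceeded 1 log2 unit, with medians of 0.39 and 1.24. Of all 3741 genes tested, 1449 were lower in those spermatocytes, 233 of them by over 1 log2 unit, and the medians were 0.21 and 0.11. Most genes tested were thus not lower there, and the 57 of 83 is not read as particular to the called genes. In spermatocytes of any UMI total, 282 of the 302 and 76 of the 83 had the same sign, with medians of -0.63 and 0.18. Over all 3741 genes tested, 1632 were lower and the median was 0.03. The part of free RNA in the lower genes was not tested.

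Against VC-T 2 and VC-T 3, the vehicle libraries that the study does not exclude, 167 of 5514 genes were called (3.03%), 164 lower (2.97%) and 3 higher (0.0544%) in T. The study itself tests T against the untreated control. Prm1, Prm2, Tnp1 and Tnp2, which the rule limits, were again in these counts, and 160 genes were lower without them. With the replicate number as a block, over only 2 pairs, 293 genes were called, 24 higher and 269 lower. Tssk6 changed by -3.11 from 587 and 253 CPM in VC-T, Cabs1 by -2.69, Smcp by -1.41 and Herpud1 by -3.10, and H2al2a, a histone variant of condensing spermatids, was at 89.4, 83.2 and 54.9 CPM in T and 445 and 383 in VC-T (-2.59). Nudt16l2 was at 4.16, 0 and 0 CPM in T and 131 and 138 in VC-T. Of the late list, 31 genes were tested and 11 were lower, with a median of -0.70 against -0.0034 over all genes. As against UC, the counts of this list are a description. The 3 higher genes were Hdgfl1, at 283, 187 and 300 CPM in T and 89.3 and 84.2 in VC-T (1.44), Gm5458 (1.75) and Camk2n1, an inhibitor of CaM kinase II (1.59). All 3 were also higher against UC, with the same T libraries, and the remaining genes higher against UC were not called here, with Tomm22 at 0.31, Map4k1 at 0.61 and Smarca5 at 1.00. With VC-T 1 included, no gene was called by edgeR (380 of 5985 had an unadjusted p under 0.05).

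The change between R and the controls was also compared between low-UMI and deeper spermatids, as the interaction of group and UMI band with the library as a block. For R against UC, 12 of 10686 genes were called (0.112%), all with a more positive change in deeper cells. They included macrophage genes: Lyz2 was at 155, 184 and 282 CPM in the deeper cells of R and 0 to 6.67 in those of UC, against 58.8, 79.0 and 7.58 in low-UMI cells of R and 79.1, 0 and 15.5 in those of UC. Cells with at least 3 macrophage UMIs numbered 7, 13 and 36 among the deeper cells of R and 8, 11 and 3 among its low-UMI cells. Without all such cells 18 genes were called, led by 4930509J09Rik (-2.52), Kcnb2 (-2.75), a potassium channel gene, and Magi2 (-1.85), a scaffold protein gene. Without UC 1, none was called by edgeR (914 of 11385 had an unadjusted p under 0.05). For R against VC-R, 17 of 10759 genes were called (0.158%), and none was called by edgeR once cells with at least 3 macrophage UMIs were left out (429 of 10562 had an unadjusted p under 0.05). Those cells were chosen by UMIs on Lyz2 and other called genes, so the loss of these calls was partly fixed by the choice. The direction of these calls rests on R 3. Without R 3, 109 genes were called for R against UC, 45 with a more positive change in low-UMI cells and 64 in deeper cells, and 29 for R against VC-R, 9 and 20. Smcp in deeper cells was at 3299, 4014 and 8371 CPM in R and 3374, 3389 and 2676 in UC, with R 3 the highest. Its change against UC was 1.08 more positive in low-UMI cells and missed the threshold (SE 0.26, edgeR adjusted p = 0.0749), and without R 3 it was 1.41 more positive and was called (adjusted p = 2.6e-25). Of the 17 genes called between R and UC in low-UMI cells, 9 were called in this interaction without R 3. Dbil5 (1.30), Tssk6 (1.01) and Oaz3 (1.21) were among them in the same direction, while mt-Nd2 (-1.17) went the other way. The 17 were chosen for being higher in low-UMI cells of R, which favours a positive difference. Against VC-R, none of the 17 genes higher in R was called without R 3, with Smcp at 0.99 (edgeR adjusted p = 0.0251, under the fold threshold).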

How the data were processed

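Single-cell RNA-seq (10x Genomics 3′ chemistry) was measured in 15 testis libraries, 1 mouse each. The deposited files hold UMI counts that the authors made with Cell Ranger after alignment to mm10 by STAR. The deposited values are these raw counts, with no correction for free RNA and no removal of doublets. The submitters' processing notes name Cell Ranger 3.0.0 and the file headers 7.0.0, and whether reads in introns were counted is not given in the sources used here. That choice would move the counts of long genes most. The study states that all libraries were processed and sequenced together, and the labels name no batch. The dates of dissociation and capture are not given in the sources used here, so a batch at those steps could not be compared.

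Each sample's group is the one its label gives. The members and gene lists were chosen with earlier results of these data known. Gene spans came from GENCODE vM21 (GRCm38), which places 32158 of 32285 genes, and promoters from RefSeq GRCm38.p6. UMIs were summed per library over members, filterByExpr took out genes with low sums, TMM gave the scaling, and edgeR 4.0.16 (R 4.3.3) ran its quasi-likelihood test with Benjamini-Hochberg adjustment over all genes tested. DESeq2 1.42.0 was an alternative. Shares of UMIs were compared by exact permutation tests (scipy 1.17.1), and doublets were scored with scanpy 1.11.5. The edgeR step was tested on simulated data. Named genes were those of the lists, the 10 called genes with the smallest p in each direction, and those with the same sign in all libraries against deeper spermatids. Where a count of 5 or fewer was given, its genes were named too, and the remaining genes called between R and UC were named after their values were seen.

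Same-numbered libraries deviated together between R and VC-R (correlations of their deviations from the group means 0.283, 0.205 and 0.482), so a fit with them as pairs is given beside the main fit. The labels state no such pairing, and differently numbered libraries were not correlated for comparison. Between R and UC the correlations were -0.121, 0.0295 and -0.00225, and between T and UC 0.0575, 0.0995 and 0.0332. T and VC-T share only 2 pairs in the main comparison, with correlations of 0.136 and 0.193, too few to show that the numbers pair the samples. Low-UMI spermatids summed to 56544 to 2243532 UMIs per library, so that 1 UMI was worth 0.446 to 17.7 CPM and the floor of 3 counts 1.34 to 53.1 CPM. Alternatives were the normalization, the filter, DESeq2, the marker minimum, the UMI window, doublet removal, equal cell numbers, the replicate block, all groups in 1 fit and leaving out each library. Thinning R 3, pairing the shares and leaving out cells with globin or macrophage UMIs were added after seeing the data.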

Additional observations from a re-analysis of the deposited data

Results flagged for a closer look

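For R against UC, the change differed between low-UMI and deeper spermatids in 12 genes by edgeR's interaction test, and the 10 with the smallest p are given as the log2 change in low-UMI cells minus that in deeper cells. They were Wfdc17 (-7.36), Lyz2 (-6.03), C1qc (-9.43), Csf1r (-9.30) and Apoe (-3.22), genes of macrophages, and 4930509J09Rik (-2.41), Kcnb2 (-2.62), Magi2 (-1.78), Gm34585 (-2.24) and 4930414F18Rik (-1.76). Where a gene was at 0 in nearly all summed libraries, the size of its fitted value depends on the prior count and is no bound.

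For R against VC-R, 17 genes differed in the same test, and the 10 with the smallest p were Wfdc17 (-10.88), Lyz2 (-10.71), Apoe (-4.96), Ftl1 (-4.45), Cbr2 (-9.22), Selenop (-6.21), C1qa (-6.62), C1qc (-8.86), Pf4 (-9.14) and Ly6e (-8.45). Deeper cells with at least 3 macrophage UMIs numbered 7, 13 and 36 in R, 0 in each VC-R library and 3 in UC 1. With such cells left out, no gene differed for R against VC-R (429 of 10562 had an unadjusted p under 0.05), while 18 did for R against UC, among them 4930509J09Rik, Kcnb2, Magi2, Gm34585 and 4930414F18Rik. The macrophage UMIs that chose these cells include those of Lyz2, C1qa and Pf4, so the loss of such genes was largely fixed by the choice. Without R 3 the direction was no longer 1-sided, with 45 of 109 genes more positive in low-UMI cells for R against UC and 9 of 29 for R against VC-R.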

How the results depend on the processing

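For R against UC (17 genes), no gene was called under 1500 UMIs (0), 47 without the filter on low counts, 44 with at least 1 of 6 markers, 36 at equal cell numbers, 27 with the replicate block, 11 with all groups in 1 fit, 51 with R 3 thinned and 4 to 47 with a library left out (47 without R 3, 33 without R 1, 10 without UC 1, 4 without UC 2). For R against VC-R (7), the counts were 2 under 1500 UMIs, 61 without the filter, 13 without doublets, 32 with 1 marker, 27 at equal numbers, 80 with the replicate block, 18 in 1 fit, 28 by DESeq2, 0 without cells holding globin, 57 with R 3 thinned and 2 to 58 with a library left out (58 without R 3, 2 without R 2 or without VC-R 1). For T against UC (385), they were 673 with 1 marker, 63 under 1500 UMIs and 163 at equal numbers, and 292 to 428 with a library left out. For T against VC-T (167), they were 264 without the filter, 365 with 1 marker, 57 under 1500 UMIs, 293 with the replicate block, 97 by DESeq2, 0 with VC-T 1 and 79 to 290 with a library left out (79 without T 2, 94 without T 3, 290 without VC-T 3). For the difference between bands, R against UC (12) gave 48 without the filter and 0 to 109 with a library left out (0 without UC 1, 3 without UC 3, 4 without UC 2, 98 without R 1, 56 without R 2, 109 without R 3). R against VC-R (17) gave 1 with DESeq2 size factors, 33 without the filter, 0 without macrophage cells and 0 to 29 with a library left out (0 without VC-R 1, 26 without R 1, 29 without R 3). There Ftl1 turned to 1.18 without macrophage cells and C1qa to 1.62 without VC-R 1 (-7.58 to 1.62 with a library left out).

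The share of low-UMI spermatids in R minus UC (7.66 points) was 11.7 with 1 marker, 5.15 under 1500 UMIs and 6.34 with cells thinned to 1000 UMIs. The differences in long genes and ribosomal protein genes, neither past the threshold, turned to -1.46 and 0.442 points under 1500 UMIs. The replicate block moved no other count by over 1.5 times. The cause of these changes was not tested. Of the named genes, 143 of 167 results for R against UC, 89 of 112 for R against VC-R, 283 of 295 for T against UC and 163 of 191 for T against VC-T kept their direction and side of the threshold, and the rest kept the direction but missed the threshold. Low UMI totals per cell and as few as 38 cells in a library limit the genes that can be tested.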
